A study of Mus musculus with 52 samples.

Results

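Bone marrow of MMTV-NeuT transgenic females, here NeuT+, was compared between 6 and 12 weeks of age. The comparison held 18 arrays of 52, chosen by the genotype and age in their titles: 9 NeuT+ mice at 12 weeks and 9 at 6 weeks, with 1 array and 1 animal each. All mice of the series were BALB/c females, and 9 NeuT- (non-transgenic) females at 12 weeks and 9 at 6 weeks serve as the side comparison. The transgene of NeuT+ mice is an activated form of the rat oncogene Erbb2 under the MMTV promoter, which is known to act in mammary epithelium, so marrow is not the tissue the transgene is built for. The labels name no treatment. Tumor labels differed between the ages. At 12 weeks 8 of 9 mice were graded early ca or early carcinoma and 1 severe dys. At 6 weeks 2 were graded early ca, 1 severe dys and 2 mild/moderate dys, 3 were labelled no, and 1 had a note in place of a grade. Tumor burden, whose unit is not stated, lay between 39293 and 798790 in the 6 mice with a value at 12 weeks. It lay between 0 and 122315 in the 6 with a value at 6 weeks, of which 3 were above 0. The 6-week and 12-week groups are different animals.

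Bone marrow makes blood cells of all lineages, with neutrophils and their precursors as the bulk of its cells and B cells arising there from progenitors that rearrange their immunoglobulin genes. These cells lie among bone-forming osteoblasts, reticular stroma that secretes Cxcl12, and thin-walled sinusoidal vessels. In the mouse, the weeks between 6 and 12 are the passage from a growing adolescent to a young adult, when long-bone growth slows and antibody-secreting cells collect in the marrow. Immediate early genes such as Egr2 and Atf3 are switched on within minutes of a stimulus, and NF-kB is the transcription factor family that drives many inflammatory cytokines and chemokines. In whole marrow, fewer cells of a type and less RNA per cell cannot be told apart.

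Each title carries an animal number, and its leading 2 digits are called the number series here. What a series represents is not given. The 12-week NeuT+ mice came 3 each from series 11, 12 and 15, and the 6-week NeuT+ mice 3 each from series 12, 14 and 17. Only series 12 held both ages, so series and age cannot be told apart for the rest. The 3 NeuT+ mice of series 17 (6-week mice 7, 8 and 9) are the ones labelled no for tumor grade, with no burden value, and 3 NeuT- mice of 6 weeks also belong to series 17. Detected probes numbered 15168 to 16820 at 6 weeks and 15455 to 16123 at 12 weeks, and median raw signals ran from 109.7 to 162.3 and from 108.3 to 153.8. The profile of 1 of the 9 mice at 6 weeks (mouse 1, series 12) lay closest to a 12-week mean, and 0 of the 9 at 12 weeks lay closest to the mean of another age. At 6 weeks 5 of the 9 lay closest to the mean of their own group, and at 12 weeks 8 of the 9. The 3 NeuT+ mice of series 17 lay closest to the NeuT- mean of 6 weeks, and 12-week mouse 2 to the NeuT- mean of 12 weeks. Peg3, a paternally expressed imprinted gene whose signal separates the genotypes on these arrays, was detected in all 18 NeuT+ mice. Its raw signal was 2090.2 to 5867 at 6 weeks and 3526 to 5885.8 at 12 weeks, against at most 199.6 in the 18 NeuT- mice. Peg3 did not pass the test for age (log2 change 0.22 ± 0.230 SE, n = 9 and 9, limma adjusted p = 0.685). The series 17 mice had its lowest mean level, 11.15 against 12.35 and 12.32 in series 12 and 14. The array's Erbb2 probe is designed on the mouse gene and was not well above background in any of the 18, so it does not check the transgene.

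In NeuT+ marrow 634 of 11309 genes (5.61%) passed limma's test at an adjusted p under 0.05, and such genes are called in what follows. Of these, 235 (2.08%) were higher and 399 (3.53%) lower at 12 weeks. More than 2-fold changes were found for 37 called genes that rose and 22 that fell. Values of the 9 and 9 mice did not overlap for 110 genes (0.973%), 52 higher (0.46%) and 58 lower (0.513%) at 12 weeks. The median log2 change of all genes was -0.02. At an unadjusted p under 0.05 there were 2109 of the 11309 genes with all mice and 1598 without series 17.

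Leaving out the animals numbered 17xxx, 6-week mice of both genotypes, reduced the calls to 201 (1.78%), 128 higher (1.13%) and 73 lower (0.646%). The balance turned with it, from 37.1% of calls higher with all mice to 63.7% higher without series 17. There were 160 genes called both ways (1.41%), 91 higher (0.805%) and 69 lower (0.61%), which is 25.2% of the 634 and 79.6% of the 201. All 160 also had that sign within series 12, where 3 mice of each age could be compared. Of the 634, all kept their sign without series 17 and 618 (97.5%) had it within series 12, against 70.6% of all genes. The mice of these fits are part of the full comparison, so agreement in sign is partly built in and does not support the calls. Without series 17 the change of the 634 shrank to a median of 0.844 of its size with all mice. The 634 were chosen by the fit with all mice, so part of this shrinkage is built in too. Leaving out another series, of the same number of NeuT+ mice, gave 1007 calls without series 14 and 170 without series 15. Single mice moved the counts by more than 1.5 times too. The 634 calls became 401 without 12-week mouse 8, 407 without 6-week mouse 8 and 414 without 6-week mouse 9, and the 201 became 98 to 123 without 6-week mouse 2, 3, 5 or 6 or 12-week mouse 8. Calls within series 12 alone numbered 59 (0.522%), 33 higher (0.292%) and 26 lower (0.23%). Values of the 9 and 6 mice left without series 17 did not overlap for 175 genes (1.55%), 104 higher (0.92%) and 71 lower (0.628%). With all mice and the number series as a fixed block, 487 genes were called (4.31%), 243 higher (2.15%) and 244 lower (2.16%). Of the 634 genes 194 were among them, and 93 were called with all mice, without series 17 and with the block. In the block fit the ages are joined only through series 12, which alone holds both, so it is no check independent of series 12.

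**Figure D1:**
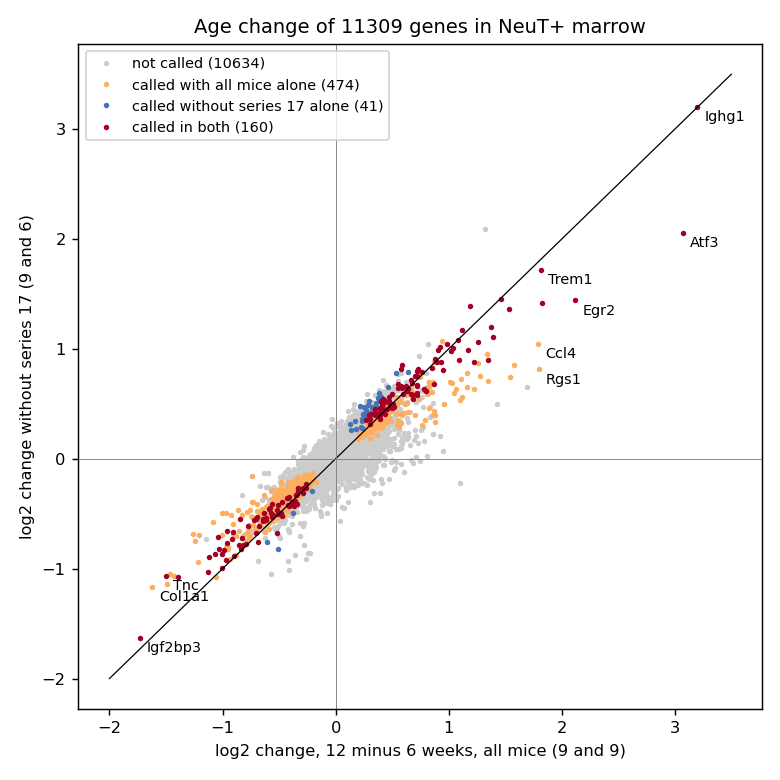
Log2 change from 6 to 12 weeks of each gene in NeuT+ marrow with all mice (x axis, 9 and 9) and without series 17 (y axis, 9 and 6), with the line of equal change. Ighg1 and Igf2bp3, at the ends of the 160 genes called both ways, lie near the line, while Atf3, Egr2, Ccl4 and Rgs1 lie well below it.

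The largest rise was that of Ighg1, which encodes the constant region of the IgG1 heavy chain, the class made by switched plasma cells. Its log2 level at 6 weeks was 5.77, 6.22 and 6.67 (lowest, median and highest of 9 mice), and at 12 weeks 8.73, 9.42 and 10.23. The groups did not overlap, and all 9 older mice were well above background against 5 of the younger. The change was 9.16-fold (log2 3.20 ± 0.268 SE, n = 9 and 9, limma adjusted p = 1.87e-11). It was as large without series 17 (3.21 ± 0.296, adjusted p = 2.98e-09) and within series 12 (3.33). Ighg1 probes can bind RNA of the other gamma heavy chains, so the class is uncertain.

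The plasma cell list showed no general rise beside Ighg1, but several of its genes were poorly measured. Of the 9 tested, 3 were well above background in none of the 18 mice and 5 in at least 5 mice of an age. Jchain, not called, lay at 4.85 to 5.16 at 6 weeks and at 4.92 to 5.61 at 12 weeks. Limma called 1 of the 9 higher and 2 lower, against 2.08% and 3.53% of all genes, and the list's median was 0.06. The one called higher, Tnfrsf17 (the survival receptor BCMA), was not well above background in any of the 18 mice, so no fold is given. Tnfrsf13b, the receptor TACI of B cells and plasma cells, fell from 11.38, 11.52 and 11.77 to 10.80, 11.02 and 11.26 (lowest, median, highest). Its groups did not overlap (log2 change -0.48 ± 0.0726 SE, n = 9 and 9, adjusted p = 4.70e-05), and it stayed called without series 17 (-0.52, adjusted p = 0.000252). Mzb1, an endoplasmic reticulum chaperone of antibody-making cells, fell by 0.41 on the log2 scale (adjusted p = 0.0409). That call was lost without series 17 (adjusted p = 0.179), with the series as a block (adjusted p = 0.161) and in 10 of the 18 fits that left out 1 mouse (adjusted p up to 0.0933).

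B-lineage genes stood lower at 12 weeks. All 9 tested members of the B-cell progenitor list had a log2 change below 0, with a median of -0.47 against -0.02 over all genes, and 2 of them fell with all mice, against 3.53% of all genes. Cd79b, the signalling chain of the B-cell receptor, went from 14.03, 14.21 and 14.43 at 6 weeks to 13.02, 13.37 and 13.76 at 12 weeks. The groups did not overlap, and the 3 older mice of series 12 were the highest of their age. Cd79b fell by 0.76 ± 0.178 (SE, adjusted p = 0.00658). Ebf1, a transcription factor that commits cells to the B lineage, fell by 0.49 ± 0.149 (adjusted p = 0.0381) without overlap. The Ebf1 call was lost in 10 of the 18 fits without 1 mouse, with an adjusted p of up to 0.0910. Rag1, of the recombinase, and Vpreb3, a partner of the pre-B-cell receptor, missed the threshold at -0.75 (adjusted p = 0.0546) and -0.60 (adjusted p = 0.0615). Each passed in 3 of those 18 fits: Rag1 without 6-week mouse 1, 6-week mouse 4 or 12-week mouse 2, and Vpreb3 without 12-week mouse 4, 5 or 6.

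Of 7 mature B-cell genes 3 fell and 0 rose, against 3.53% and 2.08% of all genes, with a median of -0.61. They were Cd72, an inhibitory co-receptor, at -0.83 ± 0.207 (adjusted p = 0.0121), Cd22, another inhibitory co-receptor, at -0.68 ± 0.180 (adjusted p = 0.0177), and the Src-family kinase Blk at -0.66 ± 0.192 (adjusted p = 0.0301). Cd22 and Blk did not overlap between the ages. The Blk call was lost in 6 of the 18 fits that left out 1 mouse, namely 6-week mouse 7, 8 or 9 and 12-week mouse 2, 8 or 9 (adjusted p up to 0.0757). Without series 17 limma called 0 of the 9 and 0 of the 7 genes on these B-cell lists, with 5 and 4 at an unadjusted p under 0.05. Of all 11309 genes, 1598 had such a p without series 17. The list medians were then -0.46 and -0.54, Cd79b stood at -0.72 ± 0.210 (adjusted p = 0.0649), and Cd79b, Ebf1, Cd22 and Blk still did not overlap between 9 and 6 mice. Cd79b, Ebf1, Cd72, Cd22 and Blk were not called with the series as a block either, at an adjusted p of 0.152, 0.189, 0.294, 0.235 and 0.285. Within series 12 the changes were smaller, at -0.49 for Cd79b and -0.31 for the mature B-cell median.

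Igf2bp3 had the largest fall of all called genes that were well above background in at least 5 mice of an age. It encodes an RNA-binding protein of fetal and neonatal tissues that, in mice, marks the fetal type of blood formation. Its log2 level was 7.03, 7.63 and 8.04 at 6 weeks, with all 9 mice well above background. At 12 weeks it was 5.30, 5.86 and 6.52, with 1 of 9 above background and no overlap. The log2 change was -1.73 ± 0.212 (SE, n = 9 and 9, adjusted p = 7.08e-07). It was -1.63 ± 0.239 without series 17 (adjusted p = 0.000105) and -1.57 within series 12. Of its 3 probes the brightest and 1 other (-1.44) fell, while another stood at -0.24.

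**Figure D2:**
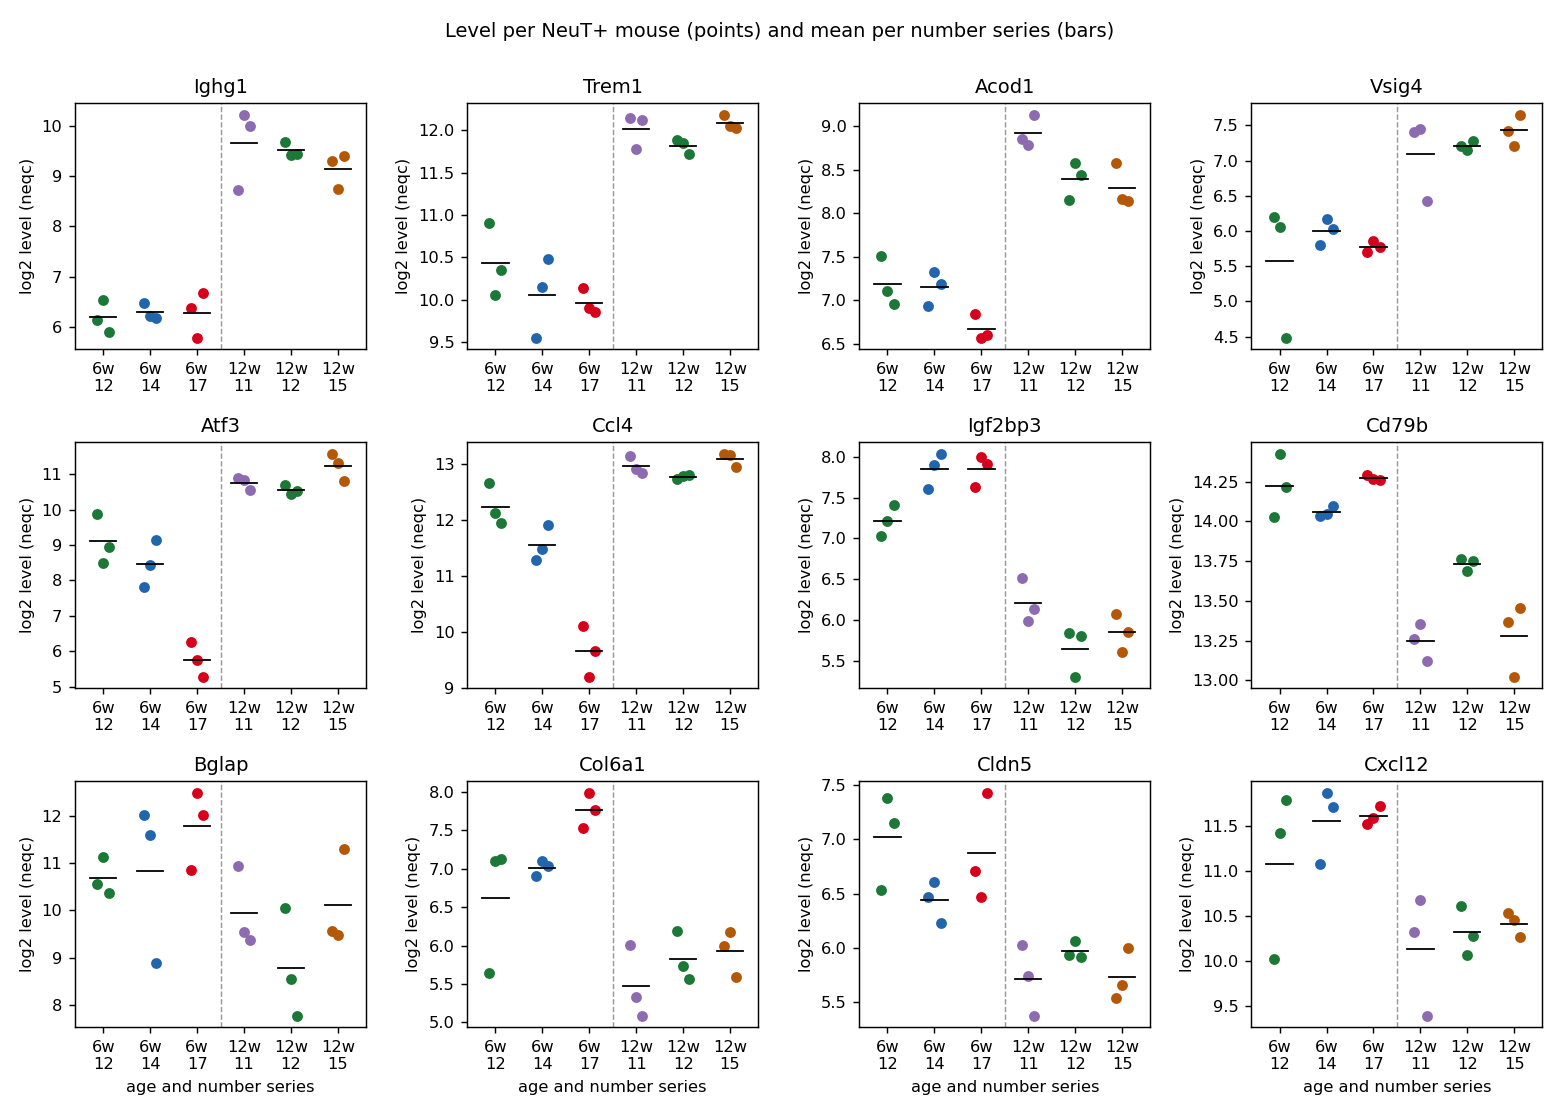
Log2 level of 12 genes in each of the 18 NeuT+ mice (points) with the mean of each number series (bars), 6-week series left of the dashed line and 12-week series right of it. Values of Ighg1, Trem1, Acod1 and Igf2bp3 do not overlap between the ages, and neither do those of Atf3 and Ccl4. Atf3 and Ccl4 are lowest in the 3 mice of series 17, and Bglap overlaps between the ages.

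Trem1, Acod1, Il1r2, Clec4e, Cd14 and Vsig4, known from activated myeloid cells and macrophages, rose with and without series 17. Part of the rule for named genes asked for calls both ways, so this agreement is no support. Trem1, a receptor of neutrophils and monocytes that amplifies inflammatory signals, went from 9.55, 10.13 and 10.91 to 11.72, 12.03 and 12.18 without overlap. Its change was 1.82 ± 0.246 on the log2 scale (SE, n = 9 and 9, adjusted p = 6.47e-06), or 3.52-fold. It was 1.72 ± 0.286 without series 17 (adjusted p = 0.000799) and 1.38 within series 12.

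Acod1, the enzyme that makes itaconate in activated macrophages, rose from 6.57, 6.96 and 7.50 to 8.14, 8.57 and 9.13. All older mice stood above all younger ones, and the change of 1.53 ± 0.218 (adjusted p = 1.48e-05) was 1.37 without series 17 (adjusted p = 0.000811). Il1r2, the decoy receptor for interleukin 1, rose from 8.50, 8.83 and 9.20 to 9.31, 10.04 and 10.77, again without overlap. Its change was 1.12 ± 0.182 (adjusted p = 0.000148) and 1.17 without series 17 (adjusted p = 0.00187).

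Clec4e, the C-type lectin receptor Mincle, rose by 0.88 ± 0.176 (adjusted p = 0.00126) and by 0.91 without series 17 (adjusted p = 0.00468). Cd14, the co-receptor for bacterial lipopolysaccharide, rose by 1.35 ± 0.234 (adjusted p = 0.000287). Series 17 was low for Cd14, at a mean of 9.36 against 10.88 and 10.54 in series 12 and 14, and the change without it was 0.90 (adjusted p = 0.00790). Vsig4, a complement receptor of tissue macrophages, was well above background in 1 of 9 younger and 9 of 9 older mice. Its levels were 4.48, 5.86 and 6.20 at 6 weeks and 6.43, 7.27 and 7.65 at 12 weeks, a change of 1.46 ± 0.255 (adjusted p = 0.000339). It was 1.46 also without series 17 (adjusted p = 0.00720).

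Vsig4 was the single member of the resident macrophage list to be called, of 12 tested, and the list's median was 0.13. On the monocyte list 1 of 8 rose, Ly86, a partner of the toll-like receptor homologue RP105, by 0.38 ± 0.0934 (adjusted p = 0.0104). That call was lost without series 17 (0.28, adjusted p = 0.141). The myeloid suppressor list, genes reported in suppressive neutrophils and monocytes, had 2 of 13 called higher with and without series 17, Trem1 and Clec4e, at a median of 0.22. All genes were called higher in 2.08% and 1.13% of cases. Limma called 0 of 7 primary granule genes and 0 of 16 genes of secondary granules and neutrophil maturation, with medians of 0.10 and 0.06. At an unadjusted p under 0.05 there were 3 of the 7 and 4 of the 16, against 2109 of all 11309 genes.

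The granulocyte lineages of allergic response gave 2 called higher of 8 tested, both also without series 17, against 2.08% and 1.13% of all genes. Fcer1a, the alpha chain of the high-affinity IgE receptor of basophils and mast cells, rose from 9.03, 9.72 and 10.15 to 10.41, 10.63 and 10.81 without overlap. The change was 0.87 ± 0.156 (adjusted p = 0.000442), 0.68 without series 17 (adjusted p = 0.0101) and 0.96 in NeuT- mice. Hdc, which makes histamine, rose by 0.41 ± 0.0959 (adjusted p = 0.00741) and by 0.45 without series 17 (adjusted p = 0.0101). The other 6 members did not pass, and the list's median was 0.21 with all mice and 0.01 without series 17.

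Cytokine and immediate early genes rose with all mice, and fewer of them rose without series 17. Of 23 genes on the inflammatory cytokine and NF-kB list 9 rose and 0 fell, and of 20 immediate early genes 9 rose and 0 fell, against 2.08% of all genes called higher. The list medians were 0.60 and 0.86. Without series 17, 5 and 2 members rose, against 1.13% of all genes, and the medians were 0.25 and 0.38. The mean log2 level of the immediate early list was 11.16, 11.08 and 11.03 in the 12-week series 11, 12 and 15. At 6 weeks it was 10.69 in series 12, 10.61 in series 14 and 9.26 in series 17. Series 17 had the lowest mean of the 6 sets of 3 mice. The part that series 17 has in these rises is measured by the values without it, and what sets these mice apart was not tested.

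Atf3, a stress-induced transcription factor, had log2 levels of 5.27, 8.45 and 9.88 at 6 weeks and of 10.44, 10.80 and 11.59 at 12 weeks. All older mice were above all younger ones, and series 17 had a mean of 5.76 against 9.10 and 8.48 in series 12 and 14. The change was 3.07 ± 0.565 (SE, n = 9 and 9, adjusted p = 0.000526) with all mice and 2.06 ± 0.488 without series 17 (adjusted p = 0.0179). It was 2.05 with the series as a block (adjusted p = 0.0307) and 1.45 within series 12. Egr2, a zinc finger transcription factor, rose by 2.12 ± 0.394 (adjusted p = 0.000574). Its change was 1.44 without series 17 (adjusted p = 0.0299), with values that still did not overlap, 1.07 with the series as a block (adjusted p = 0.0472) and 0.97 within series 12. Atf3 and Egr2 were the only members of the immediate early list called both ways.

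Zfp36, which encodes an RNA-binding protein that destabilises cytokine messages, rose by 0.64 ± 0.162 (adjusted p = 0.0128). Ier3, an early gene of stress and NF-kB signalling, rose by 0.87 ± 0.221 (adjusted p = 0.0128). Neither passed without series 17 (adjusted p = 0.219 and 0.270). Their values were then 0.43 and 0.44. Zfp36 was called with the series as a block (adjusted p = 0.0148) and Ier3 was not (adjusted p = 0.0580).

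Of the chemokines, Ccl2, which draws monocytes, rose from 4.65, 5.64 and 6.41 to 6.87, 7.41 and 7.87 without overlap, and 2 of 9 younger against 9 of 9 older mice were well above background. Its change was 1.82 ± 0.333 (adjusted p = 0.000477), 1.42 without series 17 (adjusted p = 0.0277) and 1.45 within series 12. Ccl4 and Ccl3, inflammatory chemokines made by activated macrophages, rose by 1.79 ± 0.440 (adjusted p = 0.0104) and 1.54 ± 0.417 (adjusted p = 0.0198). Both lost their call without series 17 (1.04 and 0.75, adjusted p = 0.122 and 0.255), and Ccl3 also lost it without 6-week mouse 7, 8 or 9 alone (adjusted p up to 0.0607). For Ccl4 the 6-week values were 9.19, 11.48 and 12.65 and the 12-week values 12.72, 12.91 and 13.18. The groups did not overlap. Ccl4 stood at 0.73 with the series as a block (adjusted p = 0.200) and Ccl3 rose by 0.91 (adjusted p = 0.0232).

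Tnfaip3, which encodes the NF-kB inhibitor A20, rose by 1.34 ± 0.294 (adjusted p = 0.00350), but stood at 0.95 without series 17 (adjusted p = 0.0838) and 0.83 with the series as a block (adjusted p = 0.143). Beside Trem1, Il1r2 and Cd14, the members of that list called without series 17 were Il6 and Nlrp3, named after their values were seen. Il6 was well above background in 0 of 9 and 1 of 9 mice and was not called with the block (adjusted p = 0.252). Nlrp3, the inflammasome sensor, was so in 0 of 9 younger and 5 of 9 older mice and was at least 1.10-fold higher at 12 weeks (adjusted p = 0.0207). The Nlrp3 call was lost without 12-week mouse 7 or 8 (adjusted p up to 0.0590).

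Rgs1, a brake on chemokine receptor signalling, and Cd69, an early activation marker of lymphocytes, rose by 1.80 ± 0.534 (adjusted p = 0.0352) and 1.57 ± 0.420 (adjusted p = 0.0179). Without series 17 they stood at 0.81 and 0.86 (adjusted p = 0.290 and 0.203), and with the series as a block at 0.27 and 0.58 (adjusted p = 0.712 and 0.377). The Rgs1 call was lost in 7 of the 18 fits without 1 mouse, 6-week mouse 7, 8 or 9 and 12-week mouse 1, 7, 8 or 9 (adjusted p up to 0.102). The Cd69 call was lost without 6-week mouse 8 or 9 (adjusted p up to 0.0546). A dimmer second probe of Cd69 stood at -0.20.

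**Figure D3:**
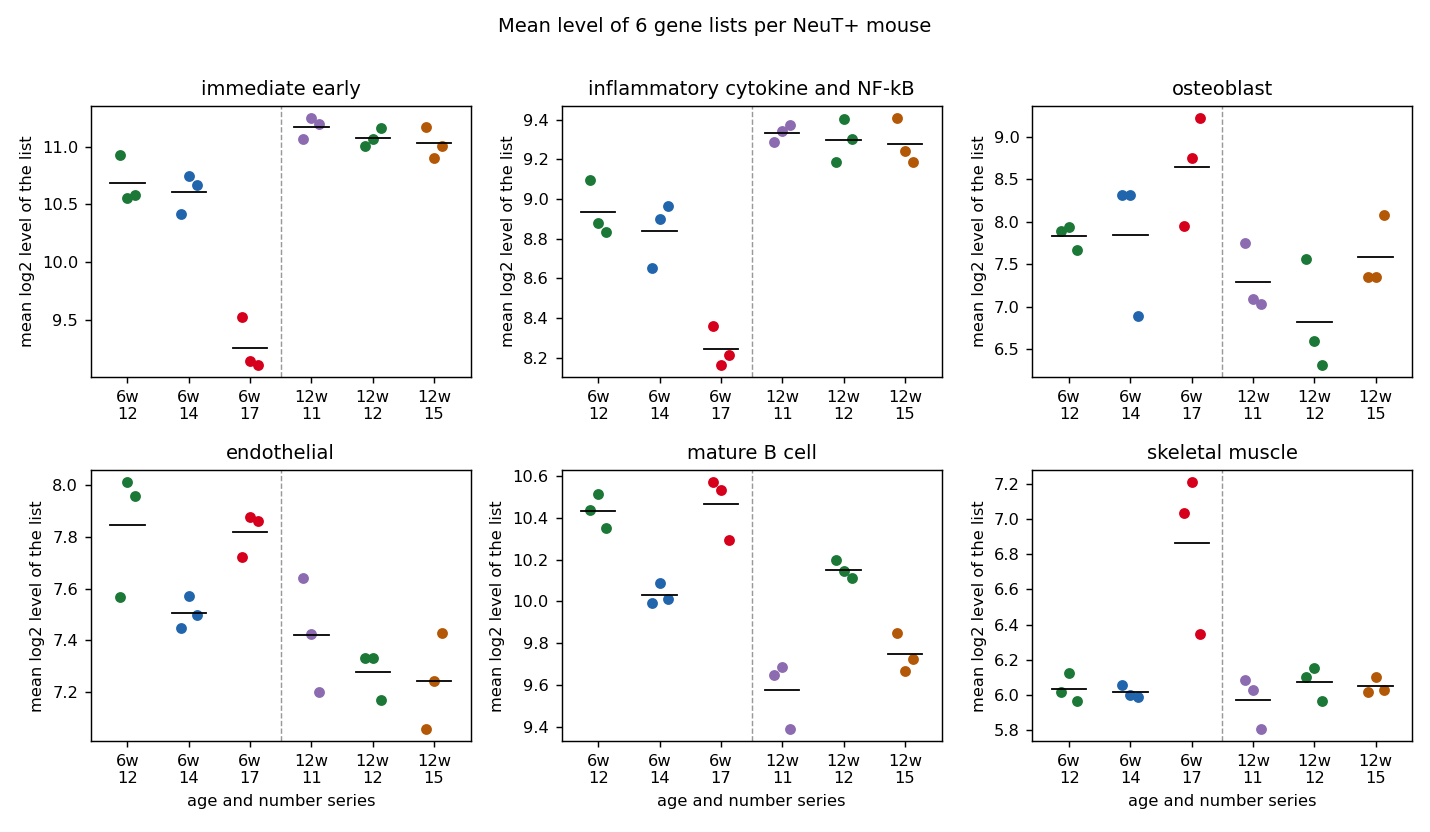
Mean log2 level of the tested members of 6 gene lists in each NeuT+ mouse (points) with the mean of each number series (bars), 6-week series left of the dashed line. Series 17 lies apart from the other 6-week series for the immediate early list (9.26 against 10.69 and 10.61) and, through mice 7 and 8, for skeletal muscle genes (6.86 against 6.03 and 6.02), and its mean is highest for osteoblast genes.

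Promoter sequences of both lists were searched, whether or not a member rose. Windows from 250 bases before to 50 after a RefSeq start (GRCm38.p6) were searched on both strands, and 19 genes of the inflammatory list and 17 of the immediate early list had 1. The NF-kB motif, GGG and TTTCC with 2 free bases between them, stood in 7 of the 19 (36.8%) and in 0 of the 17, against 1.89% of all 27025 genes with a window. The CArG box of serum response factor stood in 2 of the 17 (11.8%), Egr2 and Zfp36, against 1.81% of all genes, and the cyclic AMP response letters TGACGTCA in 3 of the 17 (17.6%) against 2.03%, and both in 0 of the 19. The AP-1 letters TGANTCA stood in 5 of the 19 (26.3%) and in 0 of the 17, against 8.97%. Such letters describe the windows and do not show binding. The inflammatory list was drawn up around NF-kB, so its share of that motif follows from the choice of members and is no support for the rises. The 250 bases upstream of the start are shown 5′ to 3′ for 3 called genes that hold a match, with the matching letters in capitals: in Tnfaip3 TGANTCA and, nearest the start, the NF-kB motif read on the other strand, and in Egr2 and Zfp36 the CArG box. They lie at chr10:19015411-19015660 (minus strand), chr10:67537316-67537565 (plus strand, the first of the Egr2 starts) and chr7:28379229-28379478 (minus strand).
Tnfaip3: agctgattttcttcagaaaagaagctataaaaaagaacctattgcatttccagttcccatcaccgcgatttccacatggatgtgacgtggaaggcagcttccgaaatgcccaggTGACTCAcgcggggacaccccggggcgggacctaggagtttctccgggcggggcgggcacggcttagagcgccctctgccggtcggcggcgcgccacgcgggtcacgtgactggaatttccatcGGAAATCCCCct
Egr2: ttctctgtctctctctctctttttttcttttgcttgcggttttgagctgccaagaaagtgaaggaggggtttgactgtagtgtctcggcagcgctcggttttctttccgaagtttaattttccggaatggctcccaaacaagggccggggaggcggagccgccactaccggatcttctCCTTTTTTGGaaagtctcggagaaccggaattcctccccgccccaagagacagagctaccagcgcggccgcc
Zfp36: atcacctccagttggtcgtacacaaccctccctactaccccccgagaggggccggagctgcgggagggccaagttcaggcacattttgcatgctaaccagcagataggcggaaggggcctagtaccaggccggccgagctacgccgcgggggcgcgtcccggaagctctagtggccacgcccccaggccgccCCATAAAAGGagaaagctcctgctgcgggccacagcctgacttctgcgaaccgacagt

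Of 13 genes of the unfolded protein and integrated stress responses 2 rose with all mice and 1 without series 17, against 2.08% and 1.13% of all genes. Ddit3, the CHOP transcription factor of the integrated stress response, went from 9.41, 9.60 and 10.06 to 10.28, 10.71 and 11.13 without overlap. Its change was 1.08 ± 0.163 (SE, n = 9 and 9, adjusted p = 4.64e-05) and 1.08 without series 17 (adjusted p = 0.00157). Ddit3 and Asns, an asparagine synthetase induced by the same response, were the 2. Asns rose by 0.29 ± 0.0849 (adjusted p = 0.0341), stood at an adjusted p of 0.0505 without series 17 and of 0.470 with the series as a block, and lost its call in 7 of the 18 fits without 1 mouse (adjusted p up to 0.0837). Pmaip1, the pro-apoptotic p53 target Noxa, rose from 6.03, 6.59 and 7.71 to 7.77, 8.16 and 8.31 without overlap (1.39 ± 0.260, adjusted p = 0.000605). Its change was 1.11 without series 17 (adjusted p = 0.0203), but it was not called with the series as a block (0.86, adjusted p = 0.0589) or within series 12 (0.60, adjusted p = 0.357). Heat shock genes gave 0 calls of 10 with limma and all mice, with 1 at an unadjusted p under 0.05, against 2109 of all 11309 genes. Without series 17 limma called 2 of 10, both higher, against 1.13% of all genes called higher. Bag3, a co-chaperone, was 1 of these, at 0.21 with all mice (adjusted p = 0.385) and 0.48 without series 17 (adjusted p = 0.0127). With all mice and the block it stood at 0.29 (adjusted p = 0.139). Its mean level was 10.72 in series 17 against 10.02 and 9.81 in the other 6-week series.

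Bone-forming and matrix genes were lower at 12 weeks with all mice. Of 10 osteoblast genes 6 fell and 0 rose, against 3.53% of all genes, with a median of -0.85. Sparc, the bone matrix protein osteonectin, went from 8.40, 9.69 and 11.38 to 6.88, 8.32 and 9.63 with overlap and fell by 1.46 ± 0.318 (SE, n = 9 and 9, adjusted p = 0.00334). Col1a1, the main collagen of bone, fell by 1.62 ± 0.488 (adjusted p = 0.0378), and Bglap, osteocalcin, by 1.49 ± 0.438 (adjusted p = 0.0340). Bglap2 fell by 1.43 ± 0.450 (adjusted p = 0.0481), but it is a near-identical copy of Bglap and their probes can bind each other's RNA. Alpl, alkaline phosphatase, fell by 0.48 ± 0.129 (adjusted p = 0.0194). Sp7, the osteoblast transcription factor osterix, was called lower (adjusted p = 0.00516). It was well above background in 4 of 9 younger and 0 of 9 older mice, so no fold is given.

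Limma called 0 of the 10 osteoblast genes without series 17, with 7 at an unadjusted p under 0.05, against 1598 of all 11309 genes. The median was then -0.40, and Col1a1 stood at -1.17 and Alpl at -0.31, with an adjusted p of 0.0873 for Sparc and of 0.138 to 0.317 for Sp7, Alpl, Bglap, Col1a1 and Bglap2. The mean level of the list at 6 weeks was 7.83 in series 12, 7.84 in series 14 and 8.64 in series 17, and at 12 weeks 7.29, 6.82 and 7.59 in series 11, 12 and 15. Within series 12 the median was -0.76, with Sparc at -1.74 (adjusted p = 0.0945), and none of the 6 was called there, the others at an adjusted p of 0.134 to 0.234 (Bglap and Sp7). With the series as a block Sparc and Bglap were called (adjusted p = 0.0107 and 0.0468) and Col1a1, Bglap2, Sp7 and Alpl were not (adjusted p = 0.0973, 0.0530, 0.0736 and 0.0530). Single mice mattered for Col1a1, Bglap and Bglap2, whose calls were lost in 10, 9 and 13 of the 18 fits without 1 mouse (adjusted p up to 0.102, 0.0852 and 0.112). The Alpl call was lost without 6-week mouse 8 or 9 (adjusted p up to 0.0583).

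Skeletal muscle genes were also high in series 17, mainly in mice 7 and 8. The mean level of the muscle list was 7.04, 7.21 and 6.35 in 6-week mice 7, 8 and 9, against 5.81 to 6.15 in the other NeuT+ mice. The osteoblast list stood at 7.95, 8.75 and 9.22 in these mice. It ran from 6.89 to 8.32 in the other 6-week NeuT+ mice and from 6.32 to 8.08 at 12 weeks, so mouse 7 was not high for it. Of 6 muscle genes tested, 1 was called lower at 12 weeks, against 3.53% of all genes. It was Myl1, a myosin light chain well above background in 2 of 9 younger and 0 of 9 older mice (adjusted p = 0.0378). Myl1 lost its call without series 17 (adjusted p = 0.563) and in 9 of the 18 fits without 1 mouse (adjusted p up to 0.118). It was not called with the series as a block (adjusted p = 0.151), and the list's median was 0.00 without series 17. Acta1, the skeletal actin, did not pass (adjusted p = 0.0627), except without 6-week mouse 1, 3, 4 or 5. Whether tissue carried over with the marrow has a part in the levels of series 17 was not tested.

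Other connective tissue genes split by whether they were still called without series 17. Mmp13, a collagenase of bone remodelling, went from 7.01, 7.74 and 10.30 to 6.61, 6.79 and 6.93 without overlap and fell by 1.26 ± 0.284 (adjusted p = 0.00496). It stood at -0.68 without series 17 (adjusted p = 0.129). The osteoclast protease Ctsk fell by 1.25 ± 0.336 (adjusted p = 0.0192), and Dcn, the proteoglycan decorin, by 1.22 ± 0.339 (adjusted p = 0.0237). Lum, lumican, fell by 1.21 ± 0.266 (adjusted p = 0.00386) and Mmp2, a gelatinase, by 1.08 ± 0.263 (adjusted p = 0.00931). None of these 5 was called without series 17, with an adjusted p of 0.112 to 0.289. Mmp13, Dcn and Lum were called with the series as a block (adjusted p = 0.0347, 0.0307 and 0.0451), and Ctsk (-0.28, adjusted p = 0.745) and Mmp2 (adjusted p = 0.0697) were not. Ctsk also lost its call without 6-week mouse 8 or 9 (adjusted p up to 0.0581), and Dcn without 6-week mouse 8 or 9 or 12-week mouse 5 or 6 (adjusted p up to 0.0660). Lum and Mmp2 were each well above background in 6 of 9 younger mice and 1 of 9 older ones.

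A second group fell with and without series 17. Tnc, the matrix glycoprotein tenascin C, was well above background in 7 of 9 younger and 0 of 9 older mice and was at least 1.70-fold lower at 12 weeks (adjusted p = 0.000259, and 0.0160 without series 17). Col6a1, a chain of the pericellular collagen VI, was above background in 8 and 0 mice and at least 1.82-fold lower (adjusted p = 5.61e-05, and 0.00347 without series 17), while its dimmest probe stood at -0.01. Loxl1, which crosslinks elastin, was above background in 5 and 0 mice and at least 1.04-fold lower (adjusted p = 0.000424, and 0.0115 without series 17). Bgn, biglycan, went from 7.78, 8.72 and 9.73 to 6.59, 7.68 and 8.13 and fell by 1.12 ± 0.168 (adjusted p = 4.64e-05), and by 0.89 without series 17 (adjusted p = 0.00284).

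Cxcl12, the chemokine with which reticular stroma retains blood progenitors, went from 10.02, 11.59 and 11.87 to 9.39, 10.32 and 10.67. The ages overlapped through 6-week mouse 1 alone, the mouse whose profile lay closest to a 12-week mean. Cxcl12 fell by 1.13 ± 0.255 (adjusted p = 0.00502), by 1.03 without series 17 (adjusted p = 0.0309) and stood at -0.76 within series 12. On the stroma and matrix list 5 of 11 fell with all mice (Col6a1, Lum, Cxcl12, Mmp2 and Dcn) and 2 of 11 without series 17 (Col6a1 and Cxcl12), against 3.53% and 0.646% of all genes. The list's median was -0.17 with all mice. Adipoq, the adipocyte hormone adiponectin, was 1 of 4 adipocyte genes called and fell by 0.93 ± 0.258 (adjusted p = 0.0230), at -0.91 without series 17 (adjusted p = 0.0956).

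Vessel genes fell in a manner that depended little on series 17. Of 11 endothelial genes 5 fell and 0 rose with all mice, and 3 fell without series 17, against 3.53% and 0.646% of all genes called lower, with medians of -0.28 and -0.29. The list's mean level was 7.85, 7.51 and 7.82 in the 6-week series 12, 14 and 17, so series 17 did not stand apart. In the 12-week series 11, 12 and 15 it was 7.42, 7.28 and 7.24. By mouse the ages overlapped, at 7.45 to 8.01 at 6 weeks and 7.06 to 7.64 at 12 weeks. Emcn, a sialomucin of sinusoidal and capillary vessels, went from 6.72, 7.29 and 7.59 to 5.97, 6.35 and 6.80, with 9 and 5 mice above background. It fell by 0.85 ± 0.142 (SE, n = 9 and 9, adjusted p = 0.000215) and by 0.78 without series 17 (adjusted p = 0.00485), and stood at -1.22 within series 12. Cldn5, a tight junction protein, was above background in 8 younger and 0 older mice and was at least 1.42-fold lower without overlap (adjusted p = 0.000448, and 0.00727 without series 17). Robo4, a guidance receptor of endothelium, fell by 0.83 ± 0.167 (adjusted p = 0.00150), and by 0.72 without series 17 (adjusted p = 0.0294). Cdh5, the endothelial cadherin, fell by 0.45 ± 0.122 (adjusted p = 0.0194), but not without series 17 (adjusted p = 0.219) or without 6-week mouse 9 alone (adjusted p = 0.0540).

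**Figure D4:**
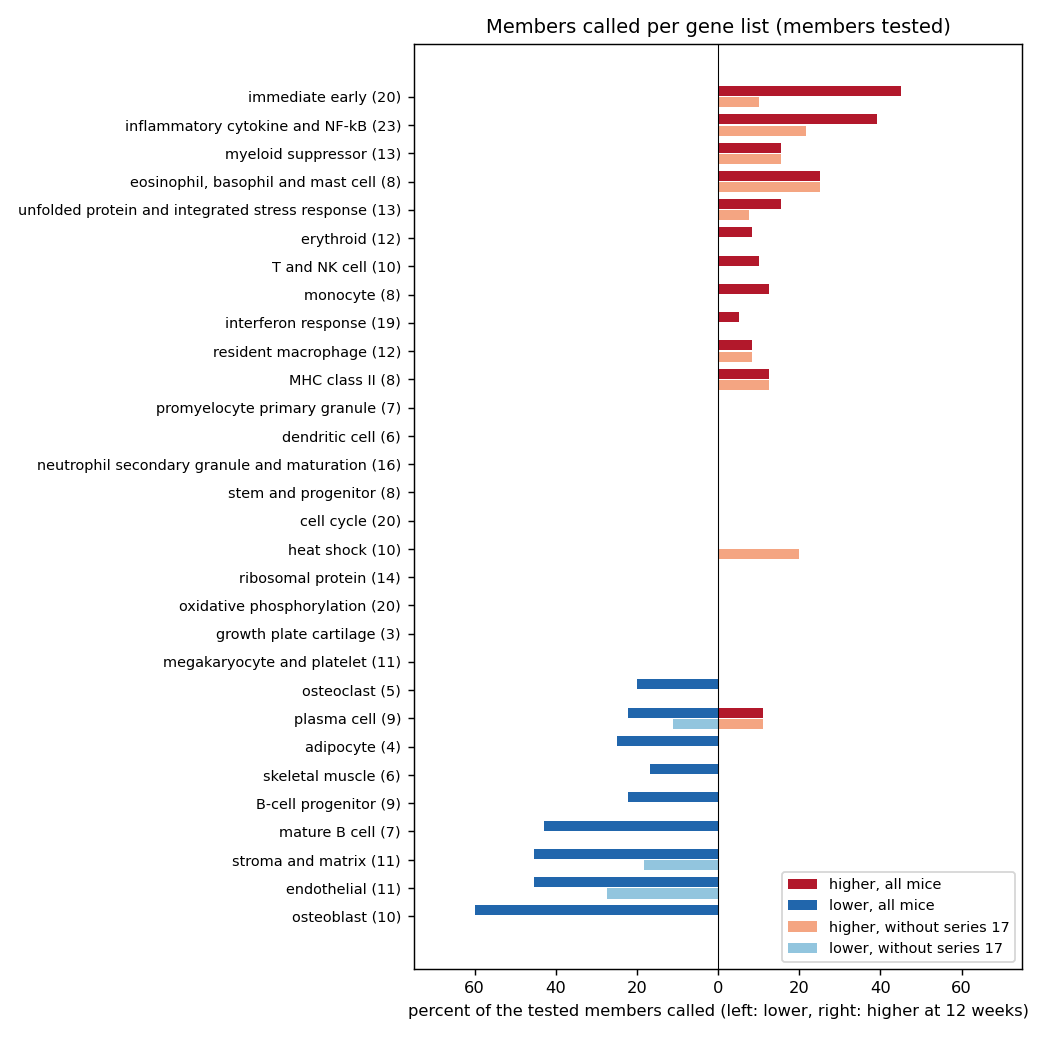
Percent of the tested members of each gene list (number tested in brackets) called lower (left) or higher (right) at 12 weeks, with all mice (dark bars) and without series 17 (pale bars). Osteoblast and B-cell bars disappear without series 17, while 3 of 5 endothelial and 5 of 9 inflammatory calls are left.

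Beside the granule lists, 7 lists of blood lineages, cartilage and housekeeping genes had 0 calls in NeuT+ marrow at an adjusted p under 0.05 with limma. These were cell cycle (0 of 20, median 0.00), oxidative phosphorylation (0 of 20, -0.07), ribosomal protein (0 of 14, -0.01), megakaryocyte and platelet (0 of 11, -0.13), stem and progenitor (0 of 8, 0.05), dendritic cell (0 of 6, 0.06) and growth plate cartilage (0 of 3, -0.12). Without series 17 they had 0 calls too. With all mice, 2 dendritic cell genes and 1 each of the oxidative phosphorylation and cartilage lists had an unadjusted p under 0.05. The other lists of these 7 had 0, against 2109 of all 11309 genes. The cartilage list was hardly measured, as 2 of its 3 tested genes were well above background in none of the 18 mice. Its member Col2a1, not called, stood at -1.15 by its brightest probe and at -0.86 and -0.77 by its other probes. The erythroid, T and NK cell, interferon and MHC class II lists had 1 call each, all higher. These were 1 of 12, 10, 19 and 8 tested, against 2.08% of all genes called higher, and single calls say nothing about a list. Tmod1, a red cell membrane protein, rose by 0.81 ± 0.247 (adjusted p = 0.0407) and Cd3e, of the T-cell receptor complex, by 0.73 ± 0.213 (adjusted p = 0.0309). The ages did not overlap for Cd3e and did for Tmod1. The interferon-induced GTPase Gbp3 rose by 0.32 ± 0.0997 (adjusted p = 0.0453) and H2-DMb1, which loads peptides on class II molecules, by 0.35 ± 0.109 (adjusted p = 0.0491). Of these 4 only H2-DMb1 was called without series 17 (0.46, adjusted p = 0.0285). With the series as a block only Cd3e was called (adjusted p = 0.0301), and H2-DMb1, Tmod1 and Gbp3 were not (adjusted p = 0.0590, 0.418 and 0.797). Calls of Tmod1, Gbp3 and H2-DMb1 were lost in 10, 10 and 13 of the 18 fits without 1 mouse (adjusted p up to 0.108, 0.124 and 0.0989), and that of Cd3e without 6-week mouse 5, 6-week mouse 9 or 12-week mouse 8 (adjusted p up to 0.0612). Mammary epithelial genes gave 0 calls of 7 tested with limma and 0 at an unadjusted p under 0.05, and 6 of the 7 were well above background in none of the 18 mice.

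NeuT- mice aged from 6 to 12 weeks give the change without the transgene, with series 11, 12 and 15 against 12, 14 and 17 as in NeuT+ mice. There 27 genes were called (0.239%), 13 higher (0.115%) and 14 lower (0.124%). All 27 were also called in NeuT+ mice, where they make up 4.26% of the calls. Of the 634 genes called in NeuT+ mice, 609 (96.1%) had the same sign in NeuT- mice, against 71.0% of all genes. Because both genotypes drew on the same series, this shared sign and the series cannot be told apart.

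The difference between the genotypes was tested directly and passed for 0 of 11309 genes with limma, and for 0 without series 17. At an unadjusted p under 0.05 there were 269 genes with all mice and 139 without series 17. Ighg1 rose in NeuT- mice too, by 2.22 ± 0.268 (adjusted p = 1.54e-06), and the difference of 0.98 ± 0.378 between genotypes did not pass over all genes. Igf2bp3 fell by 1.31 ± 0.212 there (adjusted p = 0.000495), Col4a1, a chain of basement membrane collagen, by 1.03 (adjusted p = 0.00378) and Egr2 rose by 2.08 (adjusted p = 0.00454).

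By the smallest unadjusted p of that difference, the leading genes were Fam189a1, Nkx2-3, Apold1, Togaram2 and Acod1, none of which passed after adjustment. Acod1 changed by 1.53 in NeuT+ and stood at 0.46 ± 0.218 in NeuT- mice, a difference of 1.07 ± 0.308 (unadjusted p = 0.00111). Nkx2-3, a homeobox factor of vessels in spleen and gut, changed by 0.35 in NeuT+ and stood at -0.07 in NeuT- mice (difference 0.42 ± 0.106). Fam189a1, Apold1 and Togaram2 were well above background in at most 2 of 9 mice of either NeuT+ age. Trem1 stood at 0.92 ± 0.246 in NeuT- mice (adjusted p = 0.110), with a difference of 0.90 ± 0.348, and Il1r2 at 0.31 ± 0.182, with a difference of 0.81 ± 0.258.

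**Figure D5:**
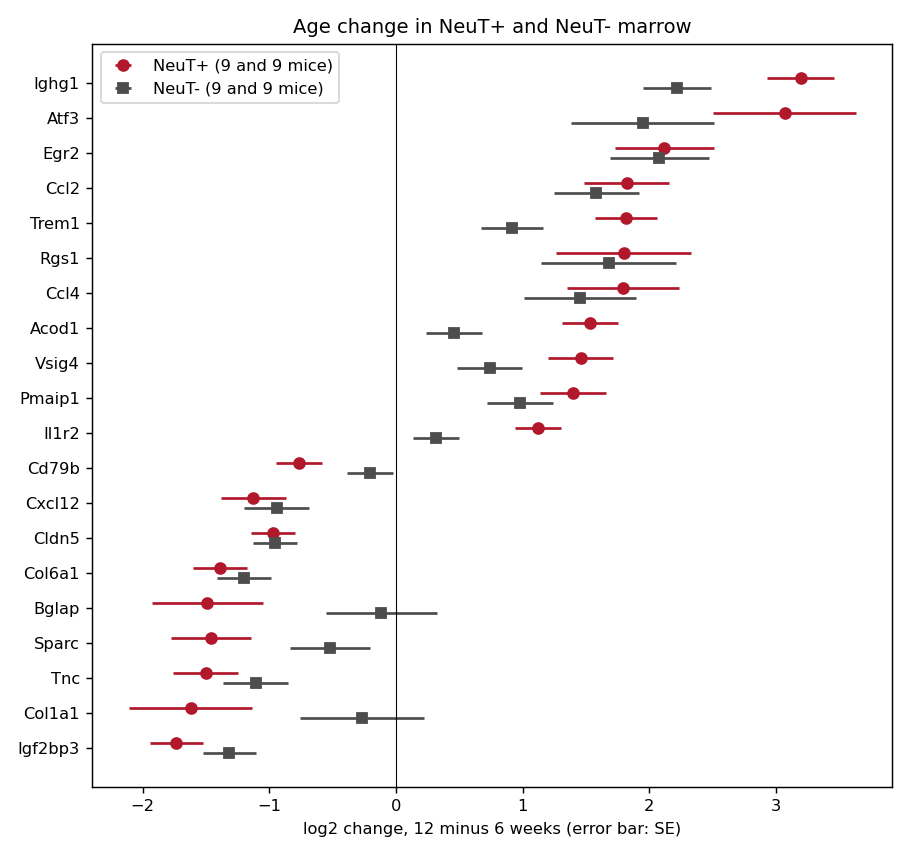
Log2 change from 6 to 12 weeks with its standard error for 20 genes in NeuT+ mice (circles) and NeuT- mice (squares), 9 and 9 mice each. Directions match for all 20, and 0 of 11309 genes passed the test of the difference.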

How the data were processed

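Illumina mouseWG-6 v2.0 arrays measured RNA of whole bone marrow. Per the series' design text it was extracted with Trizol, and raw data came from BeadStudio 3.3.8. A TotalPrep kit is named in the design text but a DASL assay in the labels' protocol, and it is unsettled which applies. The deposited raw table gave each probe's intensity on a linear scale with a detection p-value beside it, per the file headers. The authors' deposited log2 values, made with lumi and robust spline normalization per the design text, served as an alternative.

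Neqc of limma 3.58.1 (R 4.3.3, offset 16) corrected the background and normalized by quantiles. A probe was kept if any of the 52 arrays gave it a detection p under 0.01, and the brightest probe stood for each of 11309 genes, named from the platform table. "Well above background" means a detection p under 0.01. Ages were compared with lmFit and eBayes over all 47 mice in 6 groups, adjusted by Benjamini-Hochberg at 0.05, and again without the 6 mice of series 17. A fold against a group with no detected probe is a bound: the brighter group's mean over that of the dimmer group, in which each array counts with its own value or, if higher, with its lowest signal among detected probes. On simulated data with 200 of 11309 genes changed by 1 log2 unit, 98% were recovered with 14 false calls. The simulated mice were independent, with no number series effect, whereas the random block fit gave a correlation of 0.289 within series. The simulation checks the steps of the test and does not give the error rate of this comparison.

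Named genes were the 12 largest rises and 12 largest falls among called genes detected in 5 of 9 mice of an age, the 6 and 6 largest called also without series 17 with that sign within series 12, up to 4 per list by p, the 5 with the smallest p for the genotype difference, Peg3 and Erbb2. Other genes in the text (Il6, Nlrp3, Col4a1 and those of the closing observations) were chosen after their values were seen. Members and lists were chosen with earlier results of these data known. Promoter windows are RefSeq's.
Each array is a separate animal. Alternatives changed the normalization, filter, probe rule, samples fitted, array weights and number series.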

Additional observations from a re-analysis of the deposited data

Results flagged for a closer look

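Dixon's ratio, the gap of the most extreme mouse to its neighbour over the range of the 9 mice of an age, passed its 95% critical value in 13 of 234 sets of values tested, where chance gives about 1 in 20. At 6 weeks the outlying mouse was mouse 1 of series 12 in 4 of them: it was lowest for Col6a1 (ratio 0.536), Cxcl12 (0.572) and Adipoq (0.63) and highest for Bbc3 (0.515). Mouse 3 of series 12 was lowest at 6 weeks for Vsig4 (0.708), at 4.48 against 5.70 in the next mouse, and mouse 8 of series 17 was highest for Vpreb3 (0.496).

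At 12 weeks, mouse 3 of series 11 was lowest for Vsig4 (0.588), Cxcl12 (0.531) and the resident macrophage list (0.507). Mouse 2 of series 11 was highest for Asns (0.546) and lowest for Ebf1 (0.562). In series 15, mouse 7 was highest for Tnfaip3 (0.537) and mouse 9 for Lum (0.538).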

How the results depend on the processing

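The NeuT+ count of 634 became 329 with median scaling, 1103 with array weights, 361 with the number series as a random block, 487 with it as a fixed block (194 of them among the 634), 59 in series 12 alone, 201 without series 17, 1007 without series 14 and 170 without series 15. Leaving out 1 NeuT+ mouse gave 401 to 726. The count without series 17, 201, became 576 with the compared groups fitted alone, 872 with array weights, 44 without series 14 too and 58 without series 15 too, and 98 to 208 without 1 mouse. The NeuT- count of 27 became 48 with array weights, 64 with the series as a fixed block, 53 in series 12 alone, 140 without series 14, 59 without series 11 and 8 without series 15. The difference between genotypes had 0 calls in every alternative run. The share of NeuT+ calls that were higher, 37.1%, was 49.9% with the fixed block, 55.9% in series 12 alone, 63.7% without series 17 and 27.0% without series 14. Without series 17, where it was 63.7%, it was 78.6% with median scaling and 54.1% with the fixed block. Of 79 named called genes 33 lost their call without series 17, 33 with the fixed block and 66 in series 12 alone, and 9 lost it in none of 33 alternatives. Gbp3 turned to -0.13 in series 12 alone. Peg3, never called in the comparison with all mice, turned to -0.00709 with the random block, -0.29 with the fixed block, -0.37 in series 12 alone and -0.18 without series 17. The cause of these shifts was not tested. No paired analysis was possible because replicate numbers were given in accession order and pair no mice. Signal near background limits Tnc, Col6a1, Loxl1, Cldn5, Hspg2 and Nlrp3 to bounds.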

Other observations

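Genes of further groups, chosen after their values were seen, moved as follows with all mice and without series 17, so their counts support nothing beyond the values. Of 10 genes of activated myeloid cells 10 rose both ways, against 2.08% and 1.13% of all genes called higher. Among them Plaur, the urokinase receptor, rose by 0.80 (limma adjusted p = 0.000448, and 0.0262 without series 17), and Orm1, an acute-phase protein, by 0.72 (adjusted p = 0.000448, and 0.00107). Olfm4, a protein of a neutrophil subset, rose by 0.72 (adjusted p = 0.00305, and 0.00106), Cd274, the checkpoint ligand PD-L1, by 0.72 (adjusted p = 0.000477, and 0.0105) and Tlr2, a receptor for bacterial lipoproteins, by 0.47 (adjusted p = 0.0148, and 0.0195). Plaur, Orm1 and Olfm4 did not overlap between the ages. With the number series as a fixed block Cd274 was not called (0.41, adjusted p = 0.131).

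Of 12 basement membrane genes 7 fell with all mice and 5 without series 17, against 3.53% and 0.646% of all genes called lower. Col18a1 and Nid1, called both ways, were not well above background in any NeuT+ mouse of either age. Col4a1 fell by 1.00 (adjusted p = 0.000775, and 0.00757 without series 17) and Col4a2 by 0.91 (adjusted p = 0.000506, and 0.0204). Hspg2, perlecan, was well above background in 9 younger and 0 older mice and was at least 1.41-fold lower (adjusted p = 3.86e-06, and 0.000760). Of 8 p53 target genes 5 rose with all mice and 3 without series 17, against 2.08% and 1.13% of all genes called higher. Mdm2 (0.17), Gadd45a (0.35) and Ccng1 (-0.22, adjusted p = 0.0526) were not called with all mice. Ccng1 fell by 0.34 with the series as a block (adjusted p = 0.0342). Bbc3, the pro-apoptotic Puma, rose by 0.95 (adjusted p = 0.000215, and 0.0126) and Cdkn1a, the cell cycle inhibitor p21, by 0.85 (adjusted p = 0.00166, and 0.0527). With the series as a block Bbc3 was not called (0.54, adjusted p = 0.0862), and it stood at 0.36 within series 12. A dimmer second probe of Bbc3 stood at 0.12 with all mice. Of 12 clock genes 3 rose both ways, against 2.08% and 1.13% of all genes called higher. Per1 rose by 1.37 (adjusted p = 0.00120, and 0.0361), Ciart by 0.76 (adjusted p = 0.00571, and 0.0303) and Bhlhe40 by 0.67 (adjusted p = 0.00295, and 0.0451). With the series as a block 0 of these 3 were called (adjusted p = 0.111, 0.167 and 0.533), and within series 12 they stood at 0.60, 0.45 and 0.06. The labels give no hour of sampling. Cdkn1c, an imprinted cell cycle inhibitor, fell by 0.62 (adjusted p = 0.000532, and 0.0189).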
